A study of Solanum lycopersicum with 10 samples.

Results

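The mesocarp, the fleshy wall that lies beneath the skin of a tomato fruit, was compared between the mature green and the red ripe stage. The comparison took the 4 mesocarp libraries of the 10 libraries in the series by their tissue label, 2 from mature green fruits and 2 from red ripe fruits of tomato cv. Ailsa Craig (spelt Alisa Craig in the sample labels), for which no treatment or transgene is given. Mature green fruits were sampled 30 days post-anthesis and red ripe fruits 7 days post-breaker, with 2 biological replicates per tissue. How many fruits went into a replicate is not given in the sources used here. The other 6 libraries came from the exocarp (the skin) at the same stages and from leaves, and the 4 exocarp libraries were used to ask where the change in the mesocarp differed from that in the skin.

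Tomato is a climacteric fruit, in which ripening begins with a burst of ethylene synthesis. Ethylene is made from S-adenosylmethionine by ACC synthases and ACC oxidases, and it is sensed by receptors that hold the response back until they bind it. Transcription factors of the MADS-box and NAC families act with ethylene to switch on the genes for lycopene synthesis, cell wall softening, sugar conversion and aroma, while chlorophyll is broken down.

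Poly(A) mRNA was counted per gene, with totals from 30945619 to 45637676 counts per mesocarp library. Levels are given as CPM, counts brought to a common library size by TMM, a scaling that assumes most genes do not change, and always in the order replicate 1 and replicate 2. Mesocarp replicates lay close together. Of 11539 genes that averaged 10 CPM or more in green flesh, 6 were 2-fold or further apart between the replicates, as were 4 of 10695 such genes in red flesh, while their counts differed by more than counting noise (chi-square per degree of freedom of 5.46 and 6). A gene was called when its p-value from edgeR's quasi-likelihood test, adjusted by the Benjamini-Hochberg method over all 22801 genes tested, was under 0.05. With 2 libraries per stage an exact permutation test cannot pass that threshold, so none is given. The deposited tables list identifiers alone. The names used here, other than those of the skin candidates and SlACTIN, are published pairs that a reference table bore out only by name, chromosome and place, so they are likely and not certain.

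The flesh differed widely between the stages. Of the genes tested, 6441 (28.2%) were called higher and 7256 (31.8%) lower in red mesocarp, together 60.1%. The calls counted for each gene list below are to be read beside these shares. When any one of the 4 mesocarp libraries was left out, from 48.5% to 49.8% of the genes tested were called, and 30.8% were called at a stricter threshold (log2 fold change of at least 1 and adjusted p under 0.01). Large falls outnumbered large rises, with 5260 called genes that fell at least 2-fold against 2861 that rose as much, and 1215 against 473 at a log2 fold change of 5. The genes called higher held 31.4% and 31.6% of the counts of the green libraries and 69.5% and 69.4% of those of the red libraries. Their selection in these same libraries fixes the direction of that shift, so only its size is informative. The 10 most abundant genes took 4.86% and 4.73% of the green and 11.9% of each red library. The balance of the calls depended on the scaling, since 47.0% of the called genes were higher in red after TMM and 27.8% after scaling by total counts, which moved the median log2 fold change of all genes from -0.02 to -0.41. In bulk tissue, fewer cells of a type and less RNA per cell cannot be told apart.

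**Figure D1:**
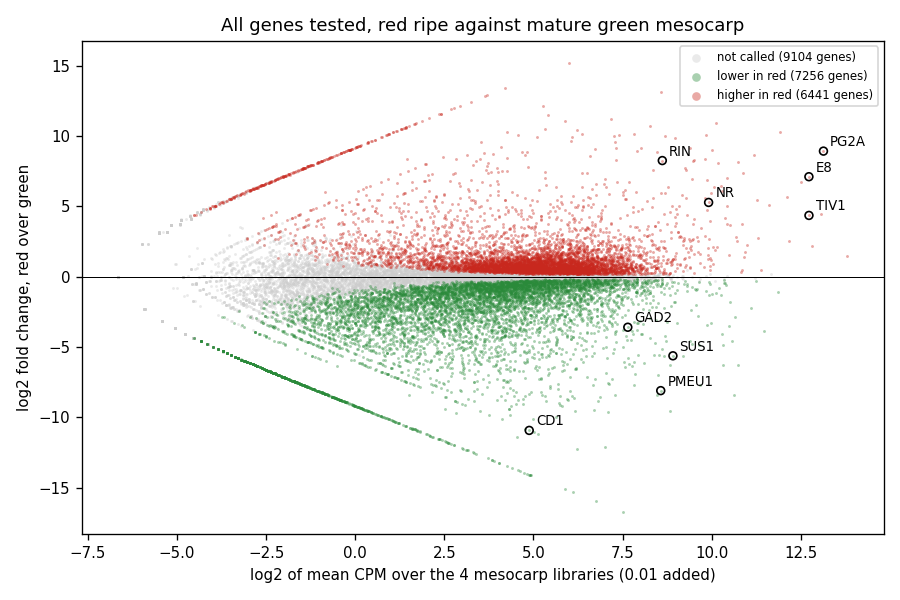
Log2 fold change of red ripe over mature green mesocarp (vertical axis) against the log2 of the mean CPM over the 4 mesocarp libraries (horizontal axis) for the 22801 genes tested, with 6441 genes called higher in red, 7256 called lower and 9104 not called. PG2A, E8 and TIV1 lie at the right edge among the most abundant genes, and the straight diagonal bands are genes without a count in one stage, whose fitted fold change depends on a prior count.

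Ethylene synthesis was led by 2 ACC synthases, the enzymes that make the ethylene precursor. ACS2 (Solyc01g095080.3) had 1.00 and 2.03 CPM in the green and 704 and 708 CPM in the red libraries, a log2 fold change of 8.86 (SE, its standard error, 0.45; adjusted p = 2.30e-06). ACS4 (Solyc05g050010.3) had 0.872 and 1.07 CPM in green and 472 and 491 CPM in red, a log2 fold change of 8.95 (SE 0.36, adjusted p = 6.45e-07). Both lay near 1 or 2 CPM in green flesh and far above that in both red libraries. ACO1 (Solyc07g049530.3), an ACC oxidase that carries out the last step, was already present in green flesh at 174 and 186 CPM and reached 6216 and 5817 CPM in red. ACO4 (Solyc02g081190.4), another ACC oxidase, went the other way from 119 and 111 CPM to 73.8 and 78.9 CPM, a log2 fold change of -0.59 (adjusted p = 0.000101). Of the 9 named genes of ethylene synthesis, 5 rose, 3 fell and 1 did not pass the test, with a median log2 fold change of 1.73 beside -0.02 over all genes tested.

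Ethylene perception changed unevenly. NR (Solyc09g075440.4), the receptor altered in the Never-ripe mutant, rose from 47.1 and 50.1 CPM to 1822 and 1943 CPM, a log2 fold change of 5.28 (SE 0.094, adjusted p = 2.33e-08). ETR4 (Solyc06g053710.3), another receptor, rose from 103 and 105 CPM to 945 and 961 CPM. The red libraries lay far above the green ones for both receptors. ETR6 (Solyc09g089610.3) rose from a low level of 0.925 and 1.71 CPM to 27.4 and 26.6 CPM, a log2 fold change of 4.36 (adjusted p = 1.93e-06), and ETR7 (Solyc05g055070.4) rose from 31.1 and 32.1 CPM to 125 and 130.3 CPM, a log2 fold change of 2.01 (adjusted p = 3.66e-06). The log2 fold changes of ETR1 and ETR5, at 0.12 and 0.26 (both below 0 after scaling by total counts), did not pass the test, and ETR2 fell by 0.65 on the log2 scale. Thus 4 of the 7 named receptors rose, 1 fell and 2 did not pass the test. E8 (Solyc09g089580.4), an ethylene-responsive gene of the dioxygenase family, went from 80.8 and 115 CPM to 13617 and 13346 CPM, a log2 fold change of 7.10 (SE 0.21, adjusted p = 6.81e-08). E4 (Solyc03g111720.3), also ethylene-responsive, went from 14.7 and 31.8 CPM to 3927 and 3597 CPM, a log2 fold change of 7.34. By FPKM, which corrects for transcript length, E8 stood at rank 4 of all genes in red flesh and E4 at rank 14. Of the 16 named genes of perception and response, 10 rose, 2 fell and 4 did not pass the test, with a median log2 fold change of 1.38.

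Among 13 named ripening regulators, 9 rose, 3 fell and 1 did not pass the test, and their median log2 fold change was 2.21. RIN (Solyc05g012020.4), a MADS-box regulator of ripening, had 0.925 and 4.21 CPM in green and 772 and 792 CPM in red flesh. Its log2 fold change was 8.25 (SE 0.53, adjusted p = 2.90e-06). NOR (Solyc10g006880.3), a NAC factor whose mutant does not ripen, had 2.48 and 3.60 CPM and 328 and 317 CPM, a log2 fold change of 6.73 (SE 0.21, adjusted p = 2.15e-07). These regulators were the lowest of the list in green flesh and had the largest changes in it. FUL1 (Solyc06g069430.3), a MADS-box partner of RIN, rose from a much higher green level, 132 and 134 CPM, to 982 and 966 CPM. Its relative FUL2 (Solyc03g114830.3) fell slightly, from 189 and 175 CPM to 142 and 147 CPM, a log2 fold change of -0.34 (adjusted p = 0.00579). Without green replicate 1 this fall no longer passed the test (adjusted p = 0.0595).

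AP2a (Solyc03g044300.3), a negative regulator of ripening, rose from 44.6 and 46.3 CPM to 676 and 682 CPM, a log2 fold change of 3.90. DML2 (Solyc10g083630.2), the DNA demethylase of fruit ripening, rose from 163 and 185 CPM to 988 and 1077 CPM, a log2 fold change of 2.57. CNR (Solyc02g077920.4), an SBP-box factor whose epigenetic mutant stays colourless, rose from 82.4 and 84.0 CPM to 393 and 379.7 CPM. The red pair of each of these genes lay above its green pair, and the stages did not overlap for 80.8% of all genes tested. TAG1 (Solyc02g071730.4), the AGAMOUS homologue, rose from 43.4 and 39.0 CPM to 235 and 232 CPM. ERF6 (Solyc01g065980.4), an ethylene response factor, rose from 297 and 286 CPM to 1003 and 1007 CPM. Their log2 fold changes were 2.50 and 1.79.

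NOR-like1 (Solyc07g063420.3), a NAC factor related to NOR, had 76.6 and 82.4 CPM in green and 118 and 134 CPM in red, a log2 fold change of 0.67 (adjusted p = 0.0276). That call was lost when any one of the 4 mesocarp libraries was left out (adjusted p from 0.0609 to 0.121) and after scaling by total counts (adjusted p = 0.328). TAGL1 (Solyc07g055920.4), a MADS-box factor of fruit expansion and ripening, had 152 and 148 CPM and 193 and 192 CPM and did not pass the test (adjusted p = 0.0566). MADS1 (Solyc03g114840.3), a MADS-box gene reported to restrain ripening, fell from 66.0 and 65.5 CPM to 31.4 and 33.1 CPM. HB-1 (Solyc02g086930.4), a homeobox factor, fell from 207 and 204 CPM to 106 and 101 CPM. Their log2 fold changes were -1.03 and -0.99, so the falls within the list were smaller than most of its rises.

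**Figure D2:**
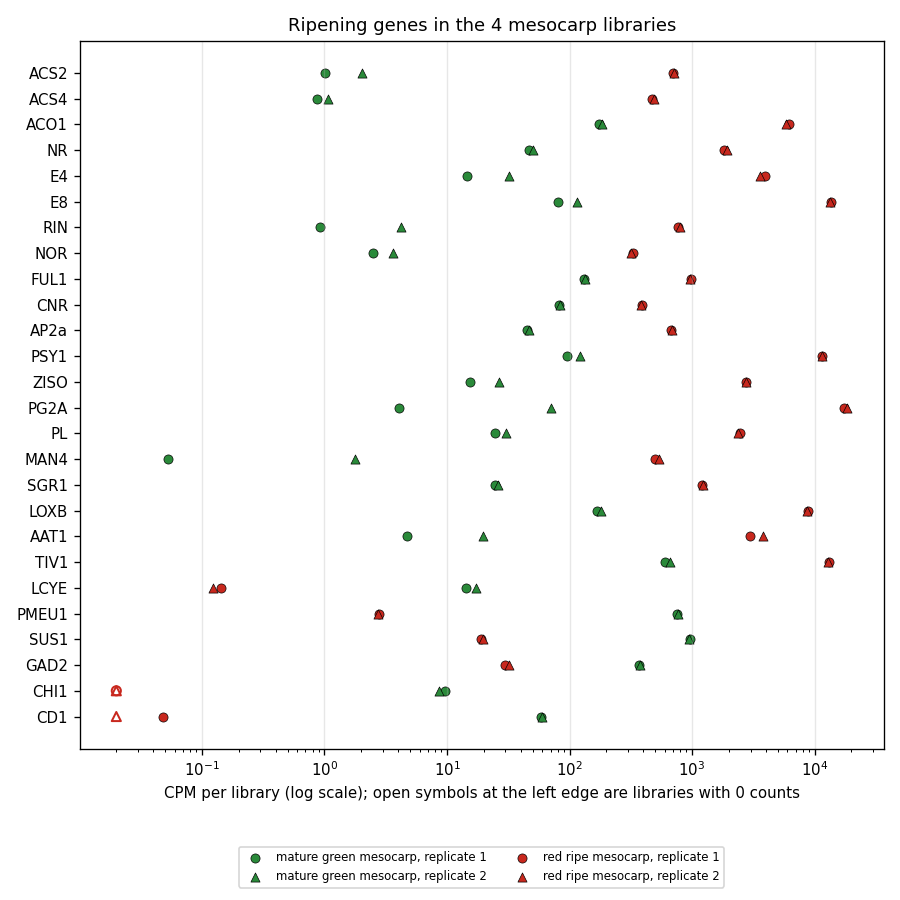
CPM (log scale) of 26 of the genes named in the text in each of the 4 mesocarp libraries, with green symbols for mature green and red symbols for red ripe fruits, circles for replicate 1 and triangles for replicate 2. The stages do not overlap for any of the 26 (80.8% of all genes tested). Most red pairs nearly coincide, and the green pairs of PG2A, MAN4, RIN and AAT1 lie furthest apart, with replicate 2 higher.

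The pathway that leads to lycopene, the red pigment, rose at most of its steps. PSY1 (Solyc03g031860.3), the fruit phytoene synthase that commits carbon to carotenoids, went from 94.7 and 123 CPM to 11423 and 11449.7 CPM, a log2 fold change of 6.72 (SE 0.22, adjusted p = 9.36e-08), and moved from rank 2004 to rank 5 of all genes by FPKM. ZISO (Solyc12g098710.2), the isomerase of zeta-carotene, went from 15.4 and 26.8 CPM to 2779 and 2737 CPM, a log2 fold change of 7.03. CRTISO (Solyc10g081650.2), the isomerase that yields all-trans lycopene, changed less, from 68.4 and 68.3 CPM to 427 and 443 CPM. DXS1 (Solyc01g067890.4), the first enzyme of the plastid isoprenoid pathway, rose from 173 and 169 CPM to 1033 and 986 CPM. The steps thus differed in size, with log2 fold changes of 2.67 and 2.56 for these last genes. Of 8 named members, 6 rose, 1 fell and 1 did not pass the test, and the median log2 fold change was 2.19. The member that fell was PSY2, a second phytoene synthase, at -0.29, a call lost without red replicate 2 (adjusted p = 0.162) or green replicate 2 (0.116).

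Enzymes that act on lycopene or beyond it were divided, with 4 of 10 higher and 6 lower in red flesh and a median log2 fold change of -0.52. LCYE (Solyc12g008980.3), the epsilon cyclase that leads towards lutein, fell from 14.2 and 17.2 CPM to 0.144 and 0.124 CPM, a log2 fold change of -6.83 (SE 0.20, adjusted p = 1.75e-07). ZEP (Solyc02g090890.4), zeaxanthin epoxidase, fell from 124 and 119 CPM to 65.1 and 63.7 CPM. The hydroxylases of beta-carotene rose instead. BCH2 (Solyc03g007960.3) went from 10.9 and 8.82 CPM to 67.5 and 66.4 CPM, and BCH1 (Solyc06g036260.3) went from 43.7 and 44.0 CPM to 94.2 and 84.6 CPM. CCD1B (Solyc01g087260.4), a dioxygenase that cleaves carotenoids to volatiles, rose from 267 and 284 CPM to 424 and 432 CPM, a log2 fold change of 0.64. The change of LCYE was larger than each of these.

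Cell wall genes had the widest range of fold changes among the lists. PG2A (Solyc10g080210.2), the polygalacturonase that depolymerizes pectin, had 4.07 and 70.0 CPM in the green and 17479.7 and 18483 CPM in the red libraries, a log2 fold change of 8.92 (SE 1.23, adjusted p = 0.0003). In red flesh it ranked 3 of all genes by FPKM, at 8641 and 9261. Its standard error was the largest among the genes named here with a count in each mesocarp library, and its 2 green libraries lay far apart. PL (Solyc03g111690.4), a pectate lyase of softening, rose from 24.8 and 30.4 CPM to 2441 and 2383 CPM, a log2 fold change of 6.45 (SE 0.18). MAN4 (Solyc01g008710.5.1), an endo-beta-mannanase, rose from 0.0529 and 1.79 CPM to 496 and 542 CPM, a log2 fold change of 9.14 (SE 0.78). The stages did not overlap for these 3 genes, as for 80.8% of all genes tested, and the red pairs lay close together.

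Both named pectin methylesterases, which remove methyl groups from pectin, fell. PMEU1 (Solyc03g123630.4) went from 753 and 764 CPM in green to 2.77 and 2.76 CPM in red, a log2 fold change of -8.10 (SE 0.31, adjusted p = 1.86e-07). PE1 (Solyc07g064170.3) was among the most abundant transcripts of green flesh, at rank 9 by FPKM, and went from 5206 and 5021 CPM to 2367 and 2431 CPM, a log2 fold change of -1.09. PE1 has close copies beside it, and the treatment of reads shared between genes is not given in the sources used here, so its level is uncertain. Of the 10 named cell wall genes, 7 rose and 3 fell, with a median log2 fold change of 5.74.

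**Figure D3:**
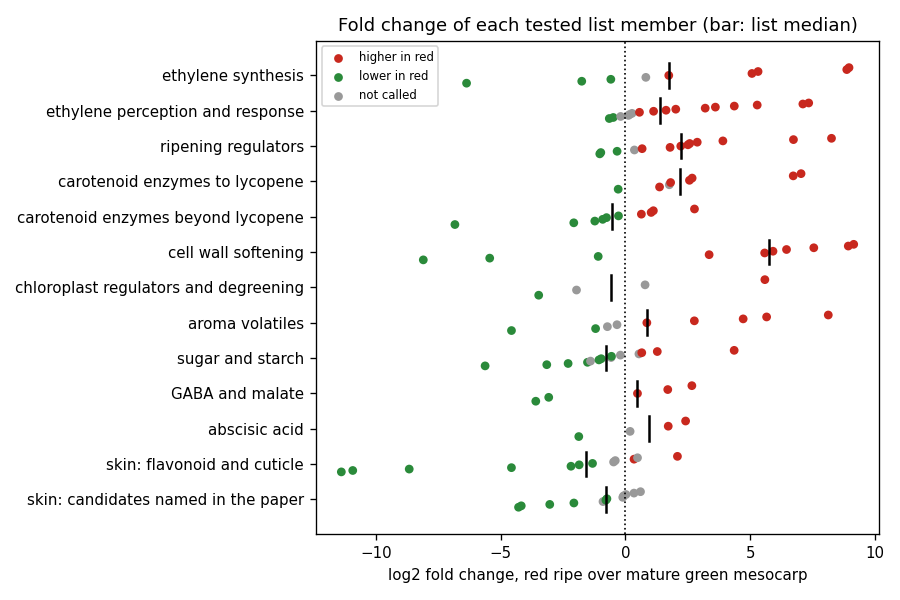
Log2 fold change of red ripe over mature green mesocarp (horizontal axis) for each tested member of 13 gene lists (rows), coloured by its call, with a black bar at the median of each list and a dotted line at the median of all genes tested (-0.02). The medians run from -1.59 for flavonoid and cuticle genes of the skin to 5.74 for cell wall genes, and most lists hold members on both sides of 0.

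Of the genes for chloroplast development and chlorophyll loss, SGR1 (Solyc08g080090.3), the STAY-GREEN protein that starts chlorophyll breakdown, rose from 24.8 and 25.9 CPM to 1195 and 1234 CPM, a log2 fold change of 5.58 (SE 0.16, adjusted p = 5.25e-08). GLK2 (Solyc10g008160.3), a chloroplast development factor of the fruit, fell from 4.49 and 6.48 CPM to 0.407 and 0.589 CPM, a log2 fold change of -3.47 (adjusted p = 0.000681). GLK1 (Solyc07g053630.4) had under 1 CPM in every mesocarp library and did not pass the test (adjusted p = 0.0517). TKN4 (Solyc01g100510.4), a KNOX factor upstream of GLK2, had 3.54 and 3.31 CPM and 5.55 and 6.26 CPM and did not pass it either (adjusted p = 0.206). Of 4 members tested, 1 rose and 1 fell, beside 28.2% and 31.8% of all genes tested.

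Genes of the aroma list moved in both directions, also within its lipoxygenases, a family of enzymes that act on fatty acids and do not all serve volatiles. AAT1 (Solyc08g005770.3), an alcohol acyltransferase, went from 4.68 and 19.6 CPM to 2997 and 3776 CPM, a log2 fold change of 8.12 (SE 0.68, adjusted p = 3.22e-05). LOXB (Solyc01g099190.4), a fruit lipoxygenase, went from 167 and 182 CPM to 8800.0 and 8742 CPM, and LOXC (Solyc01g006540.4), the lipoxygenase of flavour volatiles, went from 66.4 and 71.6 CPM to 1789 and 1831 CPM. ADH2 (Solyc06g059740.4), an alcohol dehydrogenase that reduces aldehydes, rose from 658 and 649 CPM to 4506 and 4338 CPM. Their log2 fold changes were 5.65, 4.71 and 2.76. LOXA (Solyc08g014000.3), another lipoxygenase, fell from 813 and 809.5 CPM to 32.0 and 36.5 CPM, a log2 fold change of -4.57 (adjusted p = 0.000125). LOXD (Solyc03g122340.3) had 56.4 and 54.5 CPM and 33.2 and 34.0 CPM, a log2 fold change of -0.72 that did not pass the test (adjusted p = 0.136) and passed it after scaling by total counts (adjusted p = 0.0278). Of 9 named genes, 5 rose, 2 fell and 2 did not pass the test, with a median of 0.86.

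Genes of sugar conversion moved in both directions. TIV1 (Solyc03g083910.5), the vacuolar acid invertase, rose from 603 and 665 CPM to 13079.5 and 12840.4 CPM, a log2 fold change of 4.35 (SE 0.25, adjusted p = 1.62e-06), and reached rank 6 by FPKM. SUS1 (Solyc12g009300.3), a sucrose synthase, fell from 954 and 937 CPM to 18.9 and 19.5 CPM, a log2 fold change of -5.62 (SE 0.15, adjusted p = 4.84e-08). SUS3 (Solyc07g042550.3), another sucrose synthase, rose from 121 and 115 CPM to 287 and 283 CPM, so the family did not move as one. SPS1 (Solyc07g007790.3), sucrose phosphate synthase, had 407 and 408 CPM and 638 and 643 CPM, a log2 fold change of 0.65 (adjusted p = 0.00049) that did not pass the test after scaling by total counts (adjusted p = 0.0583). Of 14 named genes, 3 rose, 7 fell and 4 did not pass the test, with a median of -0.77. Over all genes tested 28.2% rose and 31.8% fell.

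Glutamate decarboxylases, which make the amino acid GABA, changed in opposite directions. GAD1 (Solyc03g098240.3) rose from 52.6 and 52.4 CPM to 342 and 321 CPM, a log2 fold change of 2.66. GAD2 (Solyc11g011920.2) fell from 367 and 374 CPM to 29.6 and 31.9 CPM, and GAD3 (Solyc01g005000.3) fell from 123 and 114 CPM to 13.1 and 15.1 CPM. GABA-T1 (Solyc07g043310.3), a transaminase that breaks GABA down, rose from 70.3 and 75.5 CPM to 243 and 229 CPM. SSADH (Solyc09g090700.1), the next enzyme of that breakdown, had 74.4 and 72.9 CPM and 106 and 99.6 CPM (adjusted p = 0.000251, and 0.306 after scaling by total counts). Thus 3 of the 5 rose and 2 fell, where 60.1% of all genes tested were called.

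Of 4 named abscisic acid genes, both hydroxylases rose and a dioxygenase fell. NCED1 (Solyc07g056570.1), the dioxygenase that limits abscisic acid synthesis, had 84.6 and 82.5 CPM and 92.8 and 97.2 CPM and did not pass the test (adjusted p = 0.734). NCED2 (Solyc08g016720.1), its relative, fell from 12.5 and 11.5 CPM to 3.23 and 3.32 CPM, a log2 fold change of -1.87 (adjusted p = 0.000987). CYP707A2 (Solyc08g005610.3), a hydroxylase that inactivates the hormone, went from 36.8 and 40.1 CPM to 199 and 209.6 CPM, a log2 fold change of 2.41 (adjusted p = 0.00874), a call lost without green replicate 1 (0.0611) or green replicate 2 (0.0528). CYP707A1 (Solyc04g078900.3), another such hydroxylase, rose from 9.43 and 8.72 CPM to 26.9 and 32.6 CPM, a log2 fold change of 1.71 (adjusted p = 8.98e-06). Thus 2 of the 4 rose, 1 fell and 1 did not pass the test, where 60.1% of all genes tested were called.

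The 12 skin candidates of the study were chosen on these same libraries for a large excess in the exocarp over the mesocarp at both stages, so their low levels in the flesh are fixed by that choice. None rose, 6 fell and 6 did not pass the test. SlPR10 (Solyc09g090980.3) fell from 166 and 163 CPM to 23.3 and 16.8 CPM, and SlABCG10 (Solyc04g070970.4) fell from 16.0 and 13.1 CPM to 0.741 and 0.744 CPM. SlBCAD (Solyc06g059840.4) went from 1.43 and 1.60 CPM to 0.144 and 0 CPM. SlHH3 (Solyc05g032680.4) had 2.88 and 2.69 CPM and 1.39 and 1.98 CPM (adjusted p = 0.0163), a call lost without red replicate 1 (0.128) or green replicate 1 (0.0809). SlSNL6 (Solyc06g061280.3) had 1.66 and 1.49 CPM and 1.96 and 2.05 CPM and did not pass the test.

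Of 12 flavonoid and cuticle genes, 2 rose, 7 fell and 3 did not pass the test. CD1 (Solyc11g006250.2), the cutin synthase, had 58.0 and 59.9 CPM in green flesh and 2 and 0 counts in the red libraries. CHI1 (Solyc05g010320.4), chalcone isomerase of flavonoid synthesis, had 9.70 and 8.53 CPM in green flesh and no count in red, at least 111-fold lower with 3 counts per library as the floor. F3H (Solyc02g083860.3), flavanone hydroxylase, fell from 37.2 and 39.4 CPM to 10.8 and 10.4 CPM. CHS2 (Solyc05g053550.3), a chalcone synthase, had 19.9 and 22.3 CPM and 31.2 and 27.6 CPM and did not pass the test (adjusted p = 0.0546). CD2 (Solyc01g091630.3), a homeobox regulator of the cuticle, had 19.8 and 19.9 CPM and 25.7 and 24.7 CPM, a small rise after TMM (adjusted p = 0.0106) that turned to a log2 fold change of -0.05 after scaling by total counts. CHS1 (Solyc09g091510.3), another chalcone synthase, rose from 1.93 and 3.46 CPM to 10.7 and 12.2 CPM, a log2 fold change of 2.08 (adjusted p = 0.0019). In green flesh 11 of the 12 genes lay between 1.94% and 10.6% of their exocarp level, while CHI1 lay at 112% and was thus no lower than in the skin. In red flesh the 12 genes lay between 0% and 9.47% of the exocarp level. These percentages move with the exocarp too, since that of CHS1 went from 4.91% to 0.98% while CHS1 rose in the mesocarp and, by 4.40 on the log2 scale, in the exocarp. The part that traces of skin have in the values of these genes was not tested. SlACTIN (Solyc03g078400.3) fell from 1578 and 1451 CPM to 873 and 838 CPM, a log2 fold change of -0.82 (adjusted p = 3.86e-05). The study gives this identifier for the SlACTIN that normalized public expression data of another cultivar. Its RT-qPCR also took SlACTIN as the reference, but the primer list gives no identifier for it.

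Some genes had few or no counts at a single stage. From at most 3 counts in each green library, 22 genes reached a mean of at least 10 CPM in red flesh, and 67 genes went from at least 10 CPM to at most 3 counts in each red library. The genes with the largest fitted fold changes, an order that depends on the prior count and is not that of the lower bounds given here, had no name at hand. Solyc05g050007.1 had no count in green flesh and 131 and 123.5 CPM in red, at least 1596-fold higher, and Solyc08g066260.3 had no count in green and 35.04 and 38.8 CPM in red, at least 464-fold higher. In the other direction, Solyc01g086920.3 had 369.5 and 363 CPM in green and no count in red, at least 4447-fold lower, and Solyc10g083670.3 had 218.5 and 209.7 CPM in green and no count in red, at least 2599-fold lower.

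The green libraries differed in how much they held of the strongest risers. Of the 473 genes called with a log2 fold change of at least 5, 169 were higher in green replicate 2 than in green replicate 1 and 52 were lower. The 131 of them with more than 3 counts in both had a median of 1.26 times as much in replicate 2, beside 1.00 times over all genes tested with such counts. The pairs for PG2A, MAN4, RIN, AAT1 and E4 given above show this. With a log2 fold change of at least 3 the lean was smaller, with 379 of 843 genes higher and 202 lower in green replicate 2 and a median of 1.09 times among the 419 with more than 3 counts in both. In the red libraries 244 of the 473 were higher in replicate 2. What set the green libraries apart was not tested, and every call on these 5 genes held without green replicate 2.

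Ripening changed the skin as well, and the change in the mesocarp was compared with it in the same model. The change differed between the tissues for 4866 genes (21.3%). The green exocarp replicates lay apart for some of the named genes, with 252 and 594 CPM for LOXD and 18.5 and 39.0 CPM for BCH2. Of the genes called in both tissues, 10492 moved in the same direction and 395 in opposite directions. For several ripening genes the tissues lay further apart when green than when red. E8 had 0.231 and 0.263 CPM in green exocarp and 14369 and 16304 CPM in red exocarp, a log2 change in the mesocarp minus that in the exocarp of -8.80 (adjusted p = 5.06e-06). PG2A had 0.761 and 0.525 CPM in green and 27165 and 29638 CPM in red exocarp (difference of the changes -6.50, adjusted p = 0.018). AAT1 had 0.115 and 0.167 CPM in green and 6226 and 5747 CPM in red exocarp (difference -7.22, adjusted p = 0.00341). Both green mesocarp libraries lay above both green exocarp libraries for each of these genes.

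NOR had 0.346 and 0.143 CPM in green and 571 and 561 CPM in red exocarp (difference -4.42, adjusted p = 0.000252), and TIV1 had 137 and 77.8 CPM and 16315 and 16282 CPM (difference -2.89, adjusted p = 0.000568). ACS2 had no count in either green exocarp library and 397 and 738 CPM in red exocarp. RIN was different, with 4.20 and 4.28 CPM in green exocarp, level with green mesocarp replicate 2, and the difference of its changes did not pass the test (adjusted p = 0.876). ACS4 and PL showed the reverse order. ACS4 had 7.66 and 5.78 CPM in green and 188 and 110.4 CPM in red exocarp (difference 4.48, adjusted p = 0.000484), and PL had 122 and 154 CPM and 2599.6 and 2993 CPM (difference 2.11, adjusted p = 0.000306).

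**Figure D4:**
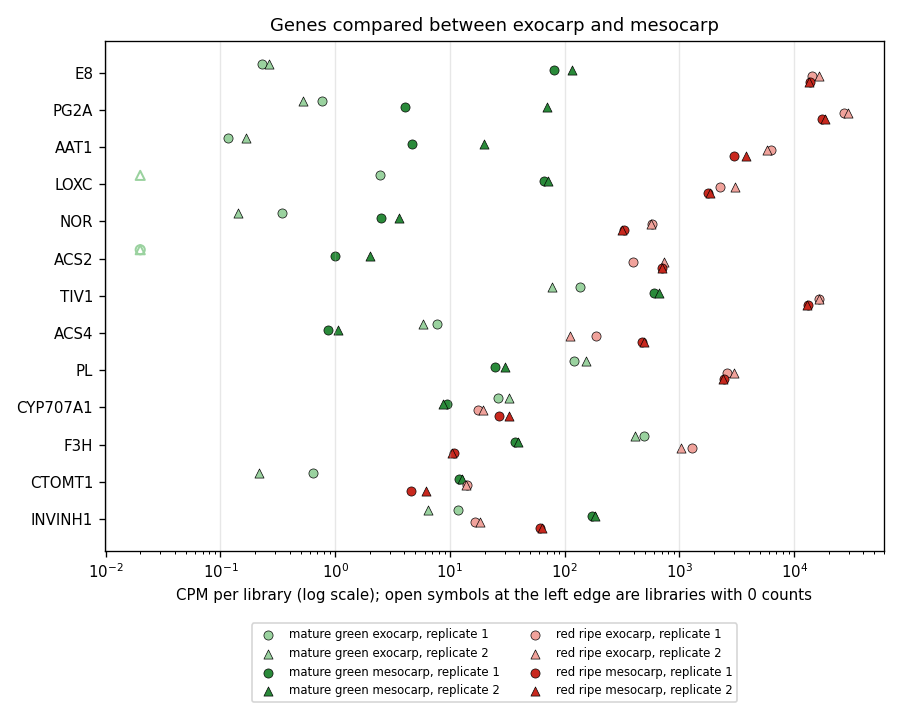
CPM (log scale) of 13 genes in green exocarp, green mesocarp, red exocarp and red mesocarp, with circles for replicate 1, triangles for replicate 2 and open symbols at the left edge for libraries without a count. E8, PG2A, AAT1, LOXC, NOR and TIV1 are lower in green exocarp than in green mesocarp and closer together in the red tissues, and the 4 genes at the bottom move in opposite directions in the tissues.

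Opposite directions were seen for F3H, which fell in the mesocarp and went from 494 and 410.2 CPM to 1298 and 1023 CPM in the exocarp (difference -3.21, adjusted p = 3.68e-05), and for CYP707A1, which rose in the mesocarp and went from 26.4 and 32.4 CPM to 17.4 and 19.3 CPM in the exocarp (difference 2.39, adjusted p = 0.000116). A further pair of such genes was chosen after the values were seen. CTOMT1 (Solyc10g005060.4), a methyltransferase of guaiacol synthesis, fell from 11.9 and 12.6 CPM to 4.59 and 6.14 CPM in the mesocarp and rose from 0.646 and 0.215 CPM to 14.0 and 13.9 CPM in the exocarp. INVINH1 (Solyc12g099200.2), an inhibitor of cell wall invertase, fell from 174 and 183 CPM to 61.1 and 63.4 CPM in the mesocarp and rose from 11.7 and 6.50 CPM to 16.4 and 18.4 CPM in the exocarp. The differences were -6.19 (adjusted p = 7.28e-05) and -2.46 (adjusted p = 0.000927), and for neither gene did the mesocarp stages overlap, as for 80.8% of all genes tested.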

How the data were processed

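Poly(A) RNA-seq libraries of 5 tissues with 2 replicates each were used, and groups and replicate numbers came from the sample labels. The authors deposited raw counts per gene and FPKM per library (35288 genes, 1213 of them unannotated loci), made by a sequencing company. HISAT2 is named in the submitters' processing notes, and the counting tool, genome build and annotation are not given in the sources used here. The kit as described does not mark strand, so overlapping genes cannot be told apart. FPKM was used for ranks between genes and as an alternative. No column was left out.

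Counts were filtered with filterByExpr by tissue, scaled by TMM and tested with edgeR 4.0.16 (quasi-likelihood F test, R 4.3.3) in a single model of the 10 libraries (5 residual degrees of freedom) and contrasts for the change in mesocarp, in exocarp and their difference. The standard error is the log2 fold change over the root of F. Counts of the mesocarp comparison were simulated with the common dispersion of the data. Of genes changed by 1 on the log2 scale 77 of 100 were recovered, and of those changed by 2, 100 of 100. Among 21897 genes tested, 9 unchanged genes were called. Apart from these changes, balanced in direction, each simulated gene had the same mean in every tissue. In the data 60.1% of genes were called, so the simulation checks the code and its rates need not hold there. A level of 3 counts per library was the floor for lower bounds, which cover counting error only.

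The deposited tables give identifiers without names, and no identifier matched the RefSeq table (assembly SLM_r2.1) directly. Apart from 13 genes the study names, names are published pairs recalled without a source at hand. A pair was kept where RefSeq had a gene of that name, or of a synonym, on the same chromosome and long enough to hold the transcript. A limit of 4% on the difference in relative position along the chromosome, the length tolerance of 1.25 and 9 synonyms were set after the positions were seen. Of 163 pairs 115 were kept, so names are likely and not certain. Light-harvesting and Rubisco genes are not reported, since their names rested on position alone, and no sequence or coordinate is given. Members and lists were chosen with earlier results of these data known. In each list, values are given for up to 4 members with the highest mean CPM and up to 2 called members with the largest fold change, for all regulators (apart from 1 gene that is not reported here and enters no list count), and for the 2 largest fold changes in each direction with at least 10 CPM in the higher stage. ETR1, ETR2, ETR5, ETR6, ETR7, LOXA, LOXD, CHS1, PSY2, CTOMT1 and INVINH1 were named outside this rule after their values were seen.

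The alternatives were DESeq2 1.42.0, scaling by its size factors or by total counts, no filter, the compared tissues alone, a replicate block, a stricter threshold, each library left out, and FPKM. Whether same-numbered libraries share fruits is not stated. Figures were drawn with Python 3.11.15 and matplotlib 3.10.9.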

Additional observations from a re-analysis of the deposited data

Results flagged for a closer look

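The change with ripening differed between mesocarp and exocarp for 45 of the 78 genes given with values in the report, beside 21.3% of all genes tested. The test was edgeR's quasi-likelihood test of the difference of the changes, with adjusted p under 0.05 over all genes tested. Many of the 78 were picked for high CPM or large fold changes in these libraries, and some after their values were seen. The shares are therefore not alike, and no enrichment can be read from them. Values here are the log2 change in the mesocarp minus that in the exocarp, each from 2 libraries per stage and tissue, and their cause was not tested.

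For 31 genes the change was lower in the mesocarp, that is a smaller rise, a deeper fall or, for 5 of them (F3H, CTOMT1, INVINH1, GAD3 and FUL2), a fall in the mesocarp beside a fitted change above 0 in the exocarp, which did not pass the test there for GAD3 and FUL2. The difference was -8.80 for E8, -8.48 for ACS2, -7.22 for AAT1, -6.50 for PG2A, -6.34 for LOXC, -6.19 for CTOMT1, -4.42 for NOR, -4.35 for GAD3, -3.21 for F3H and -2.89 for TIV1. The fitted value of ACS2, which had no count in green exocarp, depends on a prior count and gives no bound. Other large differences rest on low counts in the green exocarp libraries. These were 107 and 0 for LOXC, 10 and 11 for E8, 5 and 7 for AAT1, 15 and 6 for NOR, 33 and 22 for PG2A and 28 and 9 for CTOMT1. Next came -2.46 for INVINH1, -2.32 for CHS1, -1.96 for LOXB, -1.90 for NOR-like1, -1.63 for FUL1, -1.56 for SUS1, -1.48 for E4, -1.39 for ETR5, -1.26 for PSY1, -1.10 for SUS3 and -1.05 for CHS2. The others lay nearer to 0, at -0.94 for BCH1, -0.81 for GABA-T1, -0.79 for ETR4, -0.75 for SPS1, -0.70 for TAGL1, -0.59 for SSADH, -0.58 for NR, -0.57 for ERF6, -0.51 for CCD1B and -0.38 for FUL2.

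For 14 genes the change was higher in the mesocarp, at 4.48 for ACS4, 3.43 for ACO4, 3.11 for GAD2, 2.65 for LOXD, 2.39 for CYP707A1, 2.11 for PL, 1.40 for BCH2, 1.34 for PMEU1, 1.31 for TAG1, 1.19 for HB-1, 1.10 for CNR, 1.06 for SGR1, 0.57 for GAD1 and 0.49 for PSY2.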

How the results depend on the processing

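The comparison of red with green mesocarp called 13697 genes, and from 11434 to 11763 when 1 library was left out, a fit in which the lone library of a stage is assumed to vary like the other groups. A stricter threshold (log2 fold change of at least 1 and adjusted p under 0.01) left 7018 genes, 2551 higher and 4467 lower. Total counts in place of TMM left 3839 genes higher in red in place of 6441. The change differed between mesocarp and exocarp for 4866 genes, for 1784 at the stricter threshold, and for 3067 to 6158 when 1 library was left out, with 3146 without red mesocarp replicate 1, 3158 without green mesocarp replicate 1 and 3067 without green mesocarp replicate 2. The other alternatives kept each count within 1.5 times. Of the fits without 1 library, that without green exocarp replicate 1 called the most genes for the difference between the tissues.

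Of 780 fold changes of 78 named genes under alternatives with a test, 743 kept direction and call, and 17 genes changed either at least once. Total counts turned the sign of ETR1 (-0.273), ETR5 (-0.1299), TAGL1 (-0.0343), NCED1 (-0.206), CD2 (-0.0495) and SlSNL6 (-0.0503), of which CD2 alone was called, and FPKM gave -0.0816 for CD2. The calls of GLK1, TKN4, TAGL1, NCED1, LOXD and CHS2 appeared under some alternatives only. With the replicate block 13213 and 4373 genes were called. Deviations of same-numbered green and red mesocarp libraries correlated across genes by 0.0496, so the numbers were not taken as pairs. The block added a call on CHS2 (adjusted p = 0.049) and changed no other named call. In the simulation, changes of 1 on the log2 scale were missed more often than changes of 2.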
